A study of Mus musculus with 6 samples.

Results

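Glutathione S-transferases (GST), UDP-glucuronosyltransferases (UGT) and sulfotransferases (SULT) are the conjugating enzymes with which the liver makes foreign compounds, bile pigments and hormones water-soluble. They were taken as all protein-coding genes whose mouse symbol begins with Gsta, Gstm, Gstp, Gstt, Gstk, Gstz, Gsto, Mgst, Ugt1, Ugt2, Ugt3 or Sult. There were 67 such genes among the 48,353 genes of the annotation, 25 of them GST, 21 UGT and 21 SULT. Of these, 19 were above 0 in all 6 libraries (called fully read here), 22 in some libraries and 26 in none. They were followed in hepatocytes with a deletion of Bim (symbol Bcl2l11), a BCL-2 family protein that promotes apoptosis, and in wild-type hepatocytes, with 3 libraries of polyadenylated RNA in each group.

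Both groups were C57BL/6 mouse hepatocytes isolated by perfusion of the liver with collagenase. In the knock-out group floxed Bim was deleted by Cre recombinase from the Alb-Cre transgene, whose albumin promoter is active in hepatocytes, so other liver cells are expected to keep the gene. The labels do not say whether the wild-type mice carried floxed alleles or Cre. The protocol speaks of male mice on regular chow or on a high-fat diet begun at 8 to 10 weeks of age and kept for 14 to 20 weeks, and gives neither the diet nor the age of a sample. Since the labels name no animals, a p-value here covers the spread between the libraries of a group, and that spread may be technical only.

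Each enzyme class carries a different group onto its substrate. GST enzymes attach glutathione to electrophiles, and many of their genes are known targets of the transcription factor NRF2. UGT enzymes attach glucuronic acid from UDP-glucuronic acid, and those of the Ugt1a locus differ in their first exon and share the others. SULT enzymes attach sulfate from the donor PAPS, and several of them act on steroids and differ by sex in mouse liver.

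The libraries held 25,335,211 to 31,130,519 estimated reads each. Bcl2l11 was listed at 0 in the 3 knock-out libraries and in wild-type replicate 1, and had 680 and 478 estimated reads in wild-type replicates 2 and 3. An exact 0 has to be read with care in these files. Among well-read loci (median above 100 reads), those with 2 or more annotated transcripts had 18.02% of their library values at exactly 0, and those with 1 transcript 0.0156%. Of 9 hepatocyte markers matched, 7 were fully read, with a mean on the log2(RPKM + 1) scale of 8.00 in wild-type replicate 1 and 8.67 to 9.55 in the other libraries, while the sum over the matched markers was 21661 to 35003 RPKM in knock-out and 17883 to 42087 in wild-type. RPKM divides the reads by the size of the library and the length of the transcript. The summed level of 12 macrophage markers was 4208 RPKM in wild-type replicate 1 and 78.7 to 140 RPKM in the others, and Adgre1, Clec4f, C1qc and Vsig4 were above 0 in that library only. All 7 stellate and all 4 neutrophil markers were listed at 0 in every library, as were 5 of 7 endothelial markers. A lower level in a library can come from fewer hepatocytes or from less of the RNA per hepatocyte, and these cannot be told apart here.

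Promoter sequences of 59 of the 67 genes were matched in RefSeq (GRCm38.p6), as windows of 250 bases before to 50 after the start. The pairs Gstp1 and Gstp2 on chromosome 19, and Gsta1 and Gsta2 on chromosome 9, are shown because each is a pair of related genes that share sequence. The ratio of their read numbers was nearly constant for the Gstp pair (2.03 to 2.08) and looser for the Gsta pair (7.74 to 9.84). The transcripts of each pair share sequence too. Of the stretches of 50 bases in the Gstp1 transcript 62.3% occurred in Gstp2, and of those of Gsta2 34.7% in Gsta1. Which gene a read came from is thus uncertain, and any part of the promoters in these ratios was not tested. Gstp1 lies at chr19:4037863-4038162 and Gstp2 at chr19:4042172-4042471, both on the minus strand, and Gsta1 at chr9:78230419-78230718 on the plus strand and Gsta2 at chr9:78347096-78347395 on the minus strand. All are written 5′ to 3′. Capitals mark TGAGTCAGC in the Gstp windows and the longest run that both Gsta windows hold, of 29 bases.
Gstp1: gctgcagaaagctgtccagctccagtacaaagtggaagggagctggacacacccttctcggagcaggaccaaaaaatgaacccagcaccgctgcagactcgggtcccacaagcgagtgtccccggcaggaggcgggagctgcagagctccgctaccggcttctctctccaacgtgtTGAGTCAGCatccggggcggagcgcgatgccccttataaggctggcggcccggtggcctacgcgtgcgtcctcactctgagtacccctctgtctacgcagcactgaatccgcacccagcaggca
Gstp2: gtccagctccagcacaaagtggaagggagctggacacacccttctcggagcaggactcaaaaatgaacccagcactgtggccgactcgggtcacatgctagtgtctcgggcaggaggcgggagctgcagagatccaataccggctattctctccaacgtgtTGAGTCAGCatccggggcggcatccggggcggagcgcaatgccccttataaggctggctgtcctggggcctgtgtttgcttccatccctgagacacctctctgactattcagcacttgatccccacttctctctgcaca
Gsta1: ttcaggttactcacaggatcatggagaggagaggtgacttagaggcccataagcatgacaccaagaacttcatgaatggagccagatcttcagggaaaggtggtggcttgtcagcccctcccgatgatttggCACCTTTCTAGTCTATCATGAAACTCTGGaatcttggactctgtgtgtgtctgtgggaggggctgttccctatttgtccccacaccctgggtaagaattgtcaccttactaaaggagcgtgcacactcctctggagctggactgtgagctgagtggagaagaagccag
Gsta2: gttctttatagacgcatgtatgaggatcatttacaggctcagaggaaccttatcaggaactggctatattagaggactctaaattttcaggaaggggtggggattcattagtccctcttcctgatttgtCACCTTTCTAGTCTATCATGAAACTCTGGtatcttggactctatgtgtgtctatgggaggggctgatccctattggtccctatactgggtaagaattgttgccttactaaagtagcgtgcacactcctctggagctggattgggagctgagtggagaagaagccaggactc

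In a global alignment 246 of 300 bases were identical between the Gstp windows (82%) and 238 of 300 between the Gsta windows (79.3%). TGAGTCAGC, a form of the site bound by AP-1 and NF-E2 type factors, was looked for on both strands after it had been seen in these sequences. It began 74 bases before the start of Gstp1 and 89 before that of Gstp2. These 2 genes were the only ones of the 59 with it (3.39%), against 0.481% of all 27,025 genes with a window. Since the motif was picked from these windows, which are largely identical, the shares cannot serve as a test of enrichment. The antioxidant response element TGACNNNGC, searched on both strands, was found in windows of 4 of the 59 genes (6.78%; Gsta3, Gstm5, Gstm7 and Mgst1) and of 14.0% of all genes. Of 8 genes listed as known NRF2 targets (Gsta1, Gsta2, Gsta4, Gstm1, Gstm2, Gstm3, Gstm4 and Gstp1) 7 were matched, and 0 of their windows held it. The letters differ at the fourth base, so a match to one motif is never a match to the other at the same place on the same strand.

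By summed RPKM the GST class stood far above the others in every library. With replicates 1, 2 and 3 in this order, here and below, the GST genes summed to 6062, 7056 and 5141 RPKM in knock-out against 4601, 6380 and 5784 in wild-type. The UGT genes summed to 272.5, 402.8 and 215.9 RPKM in knock-out against 148.7, 245.3 and 178.2 in wild-type. The SULT genes summed to 112.0, 90.2 and 145.4 RPKM in knock-out against 65.2, 82.6 and 82.0 in wild-type. The order GST, UGT, SULT held in all 6 libraries, with 17.5 to 32.5 times as much GST as UGT and 1.48 to 4.47 times as much UGT as SULT. These sums hold genes listed at 0 in some or all libraries, and 25 of the 26 at 0 throughout lay at loci with 2 or more transcripts. Over fully read genes GST was 94.0 to 130 times UGT. Over the same genes UGT and SULT came closest in wild-type replicate 3, at 33.2 and 32.5 RPKM. Gsta1, Gstm1, Gstp1 and Gstp2 together made up 86.0% to 91.0% of the sum of the fully read GST genes. The GST genes took 0.302% to 0.416% of all estimated reads, the UGT genes 0.0241% to 0.0703% and the SULT genes 0.00333% to 0.0125%.

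**Figure D1:**
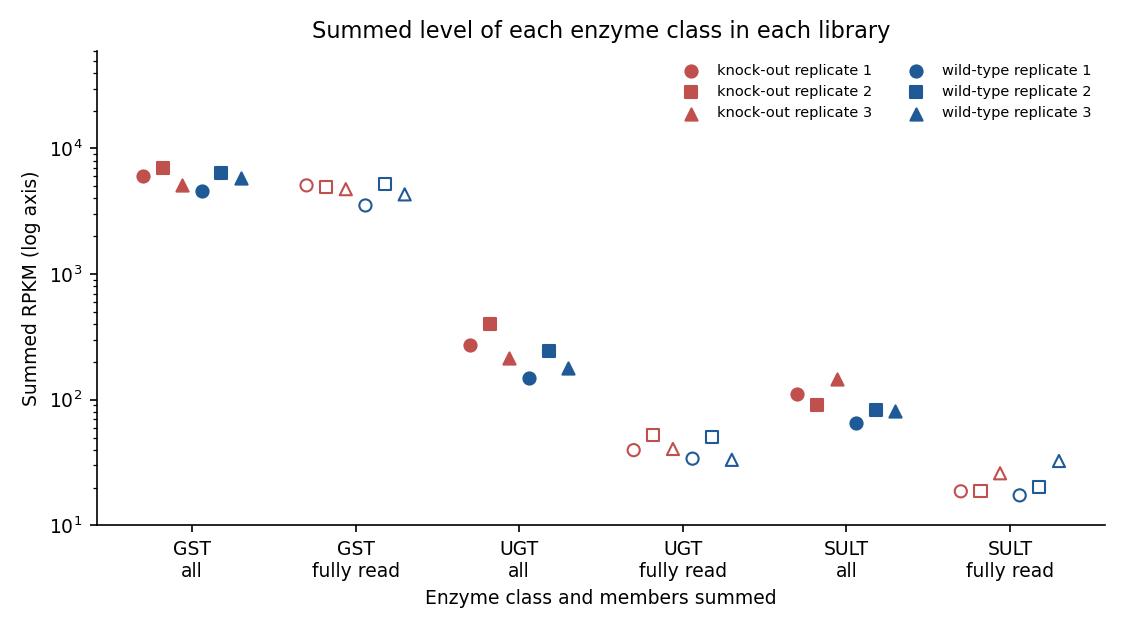
Summed RPKM (log axis) of the GST, UGT and SULT genes in each of the 6 libraries, over all genes of a class (filled) and over those above 0 in every library (open, labelled fully read); red points are knock-out and blue points wild-type. GST lies above UGT and UGT above SULT in all libraries for all genes, and the SULT groups that do not overlap in the filled points overlap in the open ones.

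The knock-out to wild-type ratio of the mean class sums was 1.09 for GST, 1.56 for UGT and 1.51 for SULT. These ratios are given without a test. The SULT sums of the groups did not overlap, the lowest knock-out library being at 90.2 RPKM and the highest wild-type library at 82.6. Counted as RPM (reads scaled to library size, not to length) the same SULT genes overlapped, with 45.2 to 125 in knock-out and 33.3 to 107 in wild-type and a ratio of 1.18. Over the 2 fully read SULT genes the ratio was 0.906, and the groups overlapped (18.7 to 26.0 RPKM in knock-out and 17.3 to 32.5 in wild-type). Over the 6 fully read UGT genes the ratio was 1.13, with 39.7 to 52.6 RPKM in knock-out and 33.2 to 50.1 in wild-type. The higher UGT and SULT sums in knock-out thus lay mostly in genes that were listed at 0 in some libraries. For UGT these include genes of the Ugt1a locus, which as a whole had reads in every library. Its mean was 241 RPM in knock-out against 172 in wild-type. Over the 11 fully read GST genes the sum was 5086, 4940 and 4745 RPKM in knock-out against 3520, 5199 and 4313 in wild-type, a ratio of 1.13, with wild-type replicate 1 the lowest.

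No conjugating enzyme gene passed the test between knock-out and wild-type. Over the 11,021 genes whose mean reached 1 RPKM, limma on log2(RPKM + 1) called 87 (0.789%) at a Benjamini-Hochberg adjusted p below 0.05, and 0 of the 34 conjugating enzyme genes tested. Each of those 87 was listed at 0 in every library of one group. Among the 5538 tested genes above 0 in all libraries limma called none (0, or 0%), with 130 (2.35%) at an unadjusted p below 0.05. Of the 17 conjugating enzyme genes in that fit 0 had an unadjusted p below 0.05, and their adjusted p lay at 0.996 to 0.998. Voom, the other method run, also called 0 of the 5538, with 72 at an unadjusted p below 0.05. Of the 17 genes 15 had a positive difference (knock-out minus wild-type), with a median of 0.24 on the log2 scale, where 50.2% of the 5538 genes were positive with a median of 0.001. By class, 11 of 11 GST genes, 4 of 5 UGT genes and 0 of 1 SULT gene were positive, with medians of 0.28, 0.16 and -0.12. These directions depend on the scaling. With the libraries scaled to hepatocyte markers 8 of the 17 were positive with a median of -0.01, and 4 of the 11 GST genes turned negative. In that fit 14.9% of the 5538 genes were positive, with a median of -0.24.

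**Figure D2:**
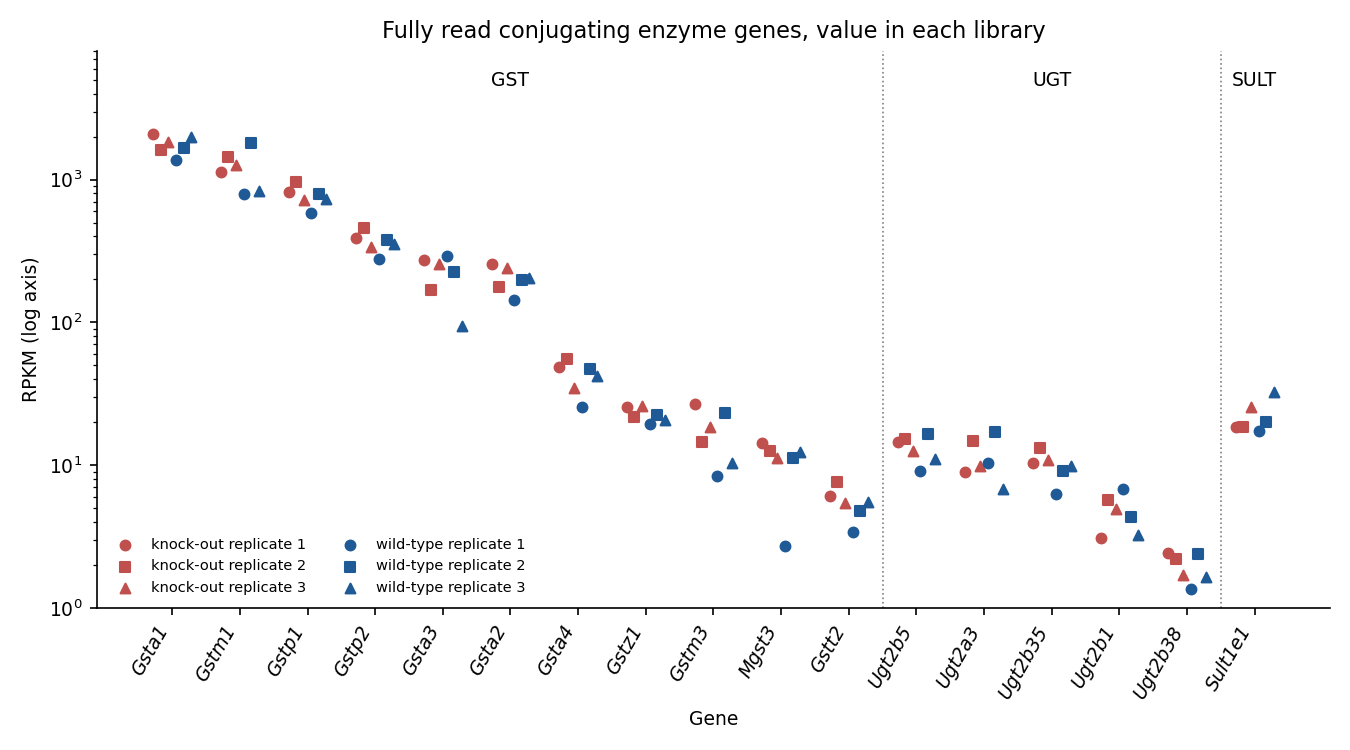
RPKM (log axis) of the 17 tested conjugating enzyme genes that were above 0 in every library; each point is 1 library, red for knock-out and blue for wild-type, and dotted lines part the classes. Gsta1, Gstm1 and Gstp1 stand highest, and wild-type replicate 1 (blue circle) is the lowest point for 14 of the 17 genes.

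Wild-type replicate 1 gave the lowest RPKM for 14 of the 17 genes, and for 21.8% of the 5538 genes. Without that library 16 of the 17 differences were positive with a median of 0.11, against 56.4% of genes and a median of 0.02 over all genes in that fit. Without wild-type replicate 2 the median of the 17 was 0.37 against -0.04 over all genes, and 3 of them (Gstm1, Gstm3 and Ugt2b5) had an unadjusted limma p below 0.05, as had 3.64% of all genes in that fit. Without wild-type replicate 3 there were 2 (Gstt2 and Ugt2b35), against 4.49% of genes. The adjusted limma p of these genes was 0.80 and 0.89 in those fits, so none was called. In wild-type replicate 1 the hepatocyte markers had the lowest mean and the macrophage markers the highest sum of the 6 libraries, as given above, and the part of either in the differences was not tested. The difference of Mgst3, a membrane-bound enzyme of the GST class, shows how far 1 library reaches. It measured 14.2, 12.6 and 11.2 RPKM in knock-out against 2.70, 11.2 and 12.3 in wild-type, so 5 libraries lie close together and wild-type replicate 1 apart. The log2 difference of Mgst3 was 0.69 (SE 0.50) over all libraries and 0.09 without wild-type replicate 1.

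**Figure D3:**
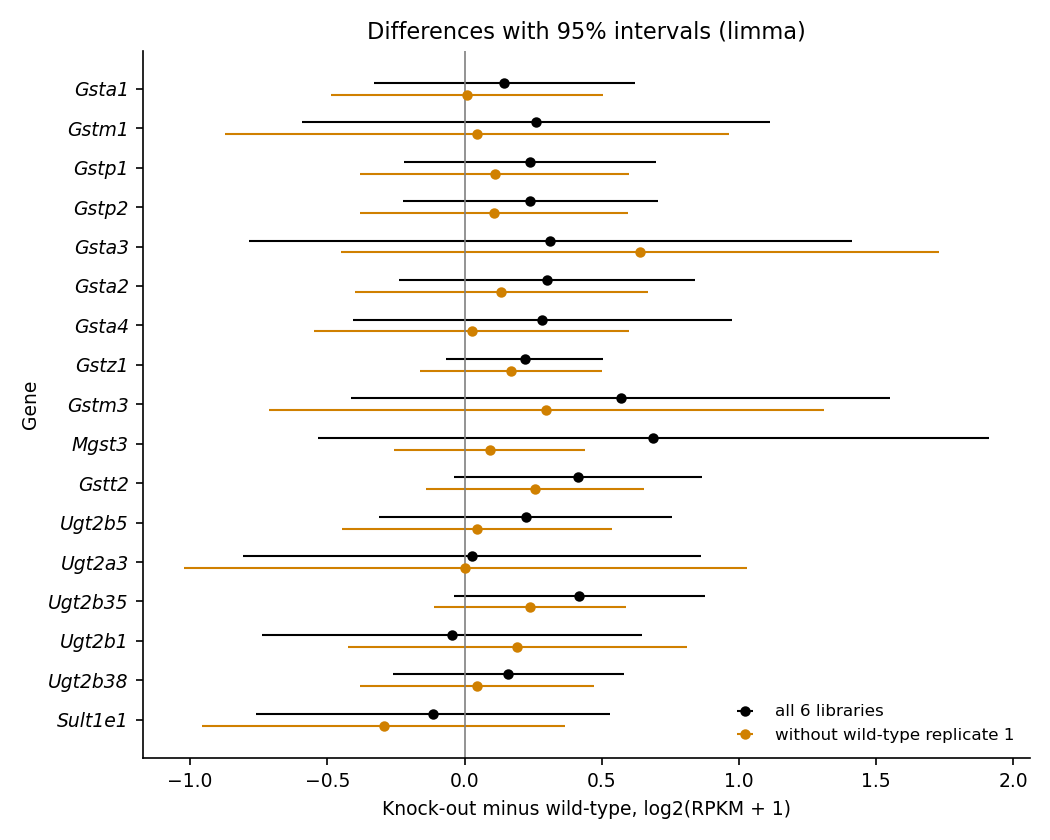
Knock-out minus wild-type on the log2(RPKM + 1) scale for the 17 genes, with 95% intervals of the limma fit, over all 6 libraries (black) and without wild-type replicate 1 (orange). Every black interval includes 0, and without that library most points lie closer to 0, while Gsta3, Ugt2b1 and Sult1e1 lie farther from it.

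The alpha class of GST enzymes, which detoxify products of lipid peroxidation, held the most abundant gene. Gsta1 (ENSMUSG00000074183, chromosome 9, 78230656 to 78242684, GRCm38) measured 2097, 1621 and 1838 RPKM in knock-out against 1376, 1677 and 2001 in wild-type, with overlapping groups. Its means were 1852 ± 238 and 1685 ± 313 RPKM (SD, n = 3 each), and its log2 difference 0.15 (SE 0.19, 95% interval -0.33 to 0.62). Gsta2 measured 255.5, 177.4 and 238.7 RPKM in knock-out against 142.5, 198.6 and 204.6 in wild-type. The groups overlapped through knock-out replicate 2, and the log2 difference of Gsta2 was 0.30 (SE 0.22). Gsta4, which acts on the lipid aldehyde 4-hydroxynonenal, measured 48.7, 55.1 and 34.9 RPKM in knock-out against 25.6, 47.2 and 42.0 in wild-type. Its groups overlapped too, with a log2 difference of 0.28 (SE 0.28).

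Reads of Gsta1 and Gsta2 are uncertain as to their gene. Of the 50-base windows in the Gsta1 transcript that had reads, 89.7% occurred unchanged in a transcript of another gene, most often Gm3776 (82.9%), and 34.7% of the Gsta2 windows occurred in Gsta1. The Gsta1 to Gsta2 ratio of estimated reads lay between 7.74 and 9.84 over the 6 libraries. No window of Gsta4 was shared (0%).

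Gsta3, another alpha class gene, whose enzyme conjugates the epoxide of aflatoxin in mice, showed RPKM values that its read numbers did not. It measured 274.2, 168.9 and 256.6 RPKM in knock-out against 290.0, 224.7 and 94.8 in wild-type, the highest 3.06 times the lowest. Its estimated reads were 4960, 5986 and 5194 in knock-out against 4508, 5172 and 5434 in wild-type, and scaled to library size alone the highest was 1.36 times the lowest. The reads of Gsta3 were assigned to 4 transcripts of 742 to 2792 bases. In wild-type replicate 3, the lowest by RPKM, all 5434 reads went to the transcript of 2792 bases, and in wild-type replicate 1, the highest, all 4508 to that of 742 bases. The log2 difference of Gsta3 was 0.31 (SE 0.45) over all libraries and -0.16 without wild-type replicate 3.

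The mu class gene Gstm1 (chromosome 3, 108012255 to 108017973) was the second most abundant. It measured 1131, 1440 and 1259 RPKM in knock-out against 787, 1816 and 835 in wild-type, so the wild-type libraries lay on both sides of the knock-out ones. The estimated reads were 29,369, 21,300 and 20,070 in knock-out against 13,655, 29,803 and 17,396 in wild-type. In knock-out replicate 1 the transcript of 1289 bases took 29,120 of the reads, while in knock-out replicate 3 and wild-type replicate 1 that of 828 bases took all of them. The group means of Gstm1 were 1277 ± 155 and 1146 ± 581 RPKM (SD, n = 3 each), with a log2 difference of 0.26 (SE 0.35).

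**Figure D4:**
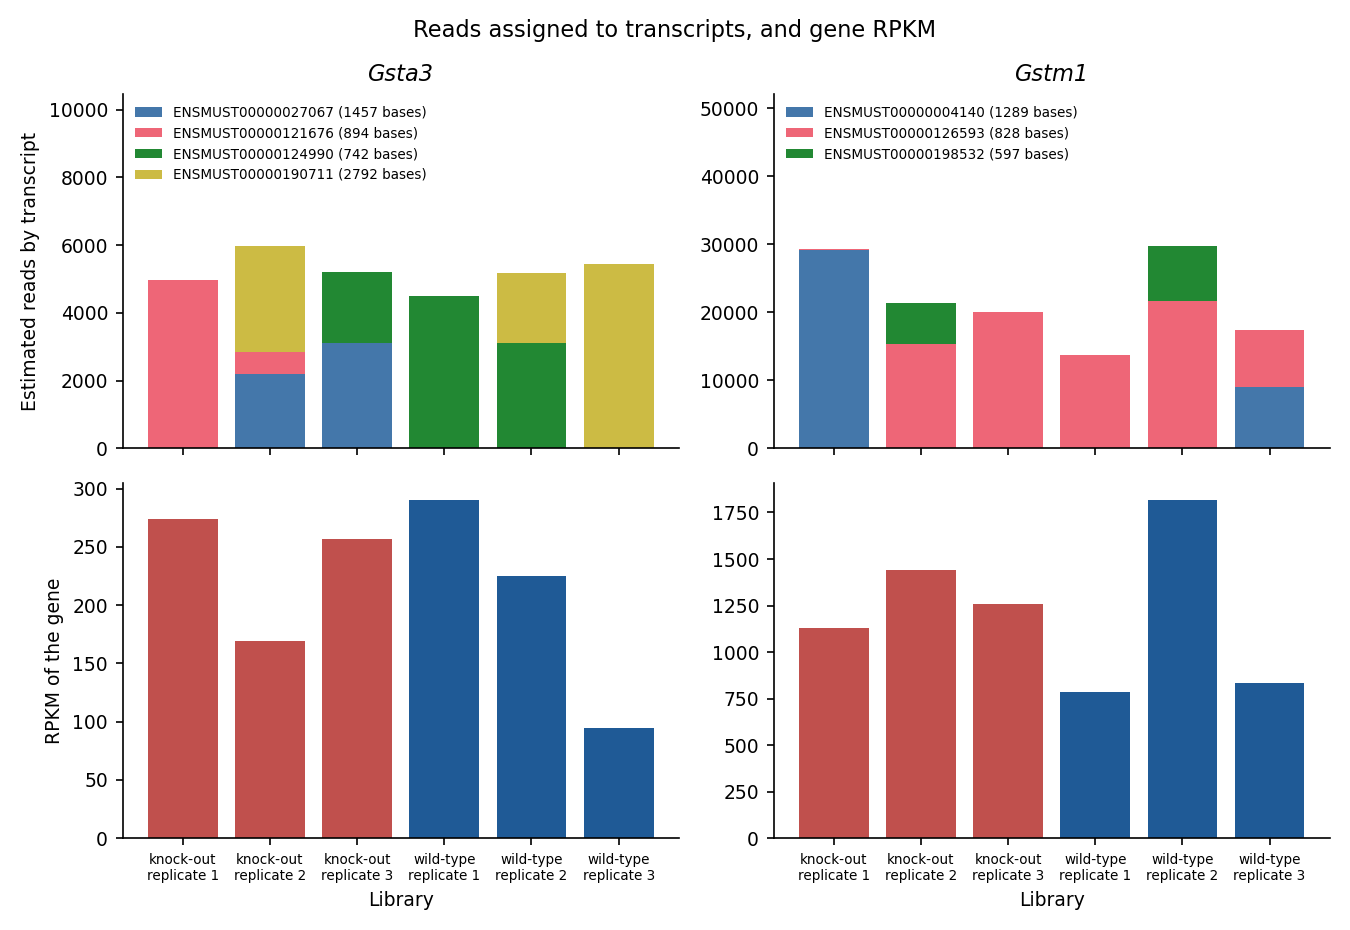
Estimated reads of Gsta3 and Gstm1 by the transcript they were assigned to (upper row, transcript lengths in bases) and RPKM of each gene (lower row) in the 6 libraries. The upper bars of Gsta3 differ little in height while its RPKM falls from 290.0 to 94.8 as the reads pass from the shortest to the longest transcript.

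Gstm3, a mu class gene at a locus with 1 transcript, varied more than the alpha class genes by reads. It measured 26.7, 14.5 and 18.4 RPKM in knock-out against 8.37, 23.0 and 10.3 in wild-type. The library order resembled that of Gstm1 by reads, with knock-out replicate 1 and wild-type replicate 2 at the top, and the log2 difference of Gstm3 was 0.57 (SE 0.40). Those 2 libraries also had the highest summed level of 13 interferon response genes, at 3887 and 3484 RPKM against 409 to 487 in the others, and the part of this in the Gstm values was not tested. Of the Gstm3 windows of 50 bases 28.8% were shared with other genes, and 19.9% of those of Gstm1. The other mu class genes Gstm2, Gstm4, Gstm6 and Gstm7 were listed at 0 in all libraries, and Gstm5 had 662 reads in wild-type replicate 1 and 0 in the other libraries.

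The pi class genes Gstp1 and Gstp2 are higher in male than in female mouse liver. Gstp1 measured 816.4, 960.5 and 717.3 RPKM in knock-out against 587.4, 797.4 and 732.6 in wild-type. Gstp2 measured 389.8, 460.1 and 339.6 RPKM in knock-out against 277.5, 376.2 and 354.3 in wild-type. In both, knock-out replicate 2 was the highest, wild-type replicate 1 the lowest, and the groups overlapped. The Gstp1 to Gstp2 ratio of estimated reads stayed between 2.03 and 2.08 in all 6 libraries. Of the Gstp1 windows of 50 bases 62.3% occurred in Gstp2, and 64.3% of the Gstp2 windows in Gstp1, so which of the copies a read came from is uncertain. The log2 difference was 0.24 for each (SE 0.19 each). Gstp3 was listed at 0 in all libraries.

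Among the other soluble GST genes, Gstz1, which also isomerizes maleylacetoacetate in tyrosine breakdown, had the smallest spread. It measured 25.5, 21.9 and 25.8 RPKM in knock-out against 19.3, 22.4 and 20.6 in wild-type, and the groups overlapped only through knock-out replicate 2 and wild-type replicate 2. The log2 difference of Gstz1 was 0.22 (SE 0.12, unadjusted p = 0.109 and adjusted p = 0.996 in limma). Gstt2, a theta class gene, had the smallest unadjusted p of the GST genes. It measured 6.06, 7.59 and 5.46 RPKM in knock-out against 3.41, 4.80 and 5.47 in wild-type. The groups of Gstt2 overlapped by knock-out replicate 3 and wild-type replicate 3, with a log2 difference of 0.41 (SE 0.19, 95% interval -0.04 to 0.87, unadjusted p = 0.0668 in limma).

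GST genes with a zero in some libraries included abundant ones. Mgst1, the main membrane-bound GST of the liver, had 19,707 and 21,040 reads in knock-out replicates 1 and 2, 0 in knock-out replicate 3, and 16,115, 17,959 and 20,612 in wild-type. Gsto1, of the omega class, had 0, 8990 and 8574 reads in knock-out against 7322, 9120 and 9582 in wild-type. Outside the single zero of each gene the read numbers of the groups overlapped. By RPKM Gsto1 did not, by a narrow margin, with 499.6 and 395.5 in knock-out replicates 2 and 3 against 295.7, 352.3 and 394.8 in wild-type. No share over all genes is given for groups of such unequal size. In knock-out replicate 2, 2369 of the Gsto1 reads went to a transcript of 551 bases, and in knock-out replicate 3, 760 to that of 759 bases. All wild-type reads of Gsto1 went to the transcript of 1182 bases. The part of this assignment in the RPKM values was not tested. Gstt1 had 1926 reads in knock-out replicate 2 and 1224 in wild-type replicate 3, and Gstk1, the kappa class gene, 576 in knock-out replicate 1 and 662 in wild-type replicate 2, and both were at 0 in the other 4 libraries. Gstt3 had 1716 reads in wild-type replicate 3 only. At the same locus 2016 reads of knock-out replicate 2 were assigned to Ddt, so the gene of these reads is uncertain. These 6 partly read GST genes, Gstm5 included, all lie at loci with 3 or more transcripts, and no mean or fold is given for them. Gsto2, Gstt4 and Mgst2 were at 0 in all libraries.

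The UGT genes were led by the Ugt1a locus (chromosome 1, 88055388 to 88220002, plus strand), where 9 of the genes share 1 locus of 26 transcripts. Ugt1a1 conjugates bilirubin, and Ugt1a6 enzymes conjugate small planar phenols. The whole locus had 5711, 8324 and 5576 estimated reads in knock-out against 4307, 6974 and 3943 in wild-type, or 42.5% to 63.3% of the UGT reads of a library. As RPM this was 241 ± 52.6 in knock-out against 172 ± 45.3 in wild-type (SD, n = 3 each), with overlapping groups (exact two-sided permutation p = 0.3, the smallest possible being 0.1).

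The genes to which these reads were assigned changed from library to library. Ugt1a6b had 5711 and 6454 reads in knock-out replicates 1 and 2 and 6290 in wild-type replicate 2, the others being at 0. Ugt1a9 had 632 and 5131 reads in knock-out replicates 2 and 3 and 4307 and 616 in wild-type replicates 1 and 3. Ugt1a1 had 1238 and 445 reads in knock-out replicates 2 and 3 and 2813 in wild-type replicate 3. Each library thus had a leading Ugt1a gene that was at 0 in another library of the same group. Ugt1a5 was read in wild-type replicates 2 and 3 only, with 684 and 514 reads. Ugt1a2, Ugt1a6a, Ugt1a7c, Ugt1a8 and Ugt1a10 were listed at 0 throughout. While the sum over the locus varied by 2.15 times as RPM, the level of a single Ugt1a gene cannot be read from these values.

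**Figure D5:**
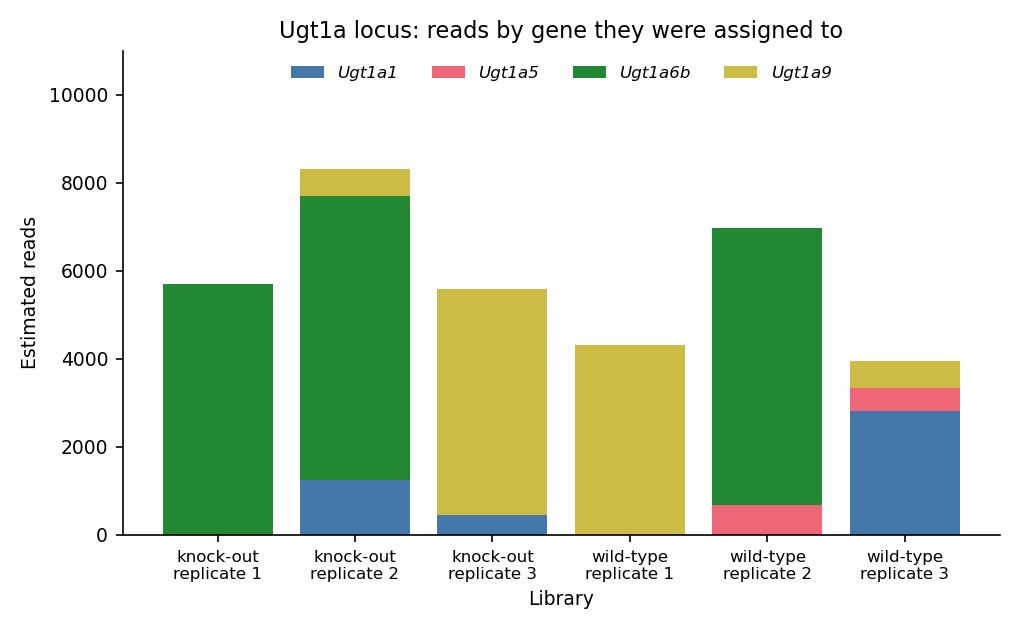
Estimated reads of the Ugt1a locus in the 6 libraries, stacked by the gene they were assigned to. The bars range from 3943 to 8324 reads, and the gene that takes most of them is Ugt1a6b in 3 libraries, Ugt1a9 in 2 and Ugt1a1 in 1.

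The Ugt2 genes lie together on chromosome 5, and the 6 of them at loci with 1 transcript were all fully read. Ugt2b35 (87000860 to 87013275, plus strand) was the 1 gene of the 17 whose groups did not overlap, where 5.94% of the 5538 genes had groups that did not (2.98% with knock-out above). It measured 10.3, 13.1 and 10.9 RPKM in knock-out against 6.22, 9.11 and 9.89 in wild-type, so the lowest knock-out library lay just above the highest wild-type one. The means were 11.4 ± 1.49 and 8.41 ± 1.93 RPKM (SD, n = 3 each), a log2 difference of 0.42 (SE 0.19, 95% interval -0.04 to 0.88, unadjusted p = 0.0661 and adjusted p = 0.996 in limma). Without wild-type replicate 1 the log2 difference of Ugt2b35 was 0.24. Of its windows of 50 bases 0.303% were shared with another gene.

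Ugt2b5, the most abundant of the fully read UGT genes, measured 14.5, 15.2 and 12.5 RPKM in knock-out against 9.04, 16.5 and 11.1 in wild-type. Ugt2a3 measured 8.97, 14.7 and 9.82 RPKM in knock-out against 10.3, 17.1 and 6.81 in wild-type. Ugt2b1 measured 3.07, 5.65 and 4.89 RPKM in knock-out against 6.79, 4.29 and 3.26 in wild-type. The groups overlapped in all 3, with log2 differences of 0.22 (Ugt2b5, SE 0.22), 0.03 (Ugt2a3, SE 0.34) and -0.05 (Ugt2b1, SE 0.28). Ugt2b1 was the UGT gene with its highest value in wild-type replicate 1, the library where most others were lowest. Ugt2b38 measured 2.40, 2.19 and 1.70 RPKM in knock-out against 1.36, 2.37 and 1.65 in wild-type, and 34.2% of its windows of 50 bases occurred in Ugt2b5. Ugt2b37, also fully read but with a mean under 1 RPKM and so not tested, had 18, 62 and 28 reads in knock-out against 8, 32 and 20 in wild-type.

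Ugt2b34 was the most abundant UGT gene outside the Ugt1a locus. It had 3631, 5048 and 3589 reads in knock-out against 0, 3788 and 3674 in wild-type. Away from the zero in wild-type replicate 1 the groups overlapped, knock-out replicate 2 being the highest. That zero removes from the UGT sum of the library a gene that took 26.0% to 39.6% of the UGT reads in the others. Ugt2b36 had 814, 1076 and 0 reads in knock-out against 826, 0 and 0 in wild-type. Ugt3a2 had 2506 reads in knock-out replicate 2, with the other libraries at 0. Ugt2a1, Ugt2a2 and Ugt3a1 were at 0 in all.

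The SULT class had few reads and many zeros. Of its 21 genes 10 were at 0 in all libraries, 9 in some, and 2 were fully read. Sult1e1, the estrogen sulfotransferase, known to be low in the liver of lean male mice and higher in obese and diabetic ones, measured 18.4, 18.4 and 25.7 RPKM in knock-out against 17.2, 20.0 and 32.3 in wild-type. It lies at a locus with 1 transcript, had 448 to 824 reads per library, and shared no window of 50 bases with another gene (0%). Its groups overlapped, and it was the SULT gene in the fit of genes above 0 in all libraries, with means of 20.8 ± 4.22 and 23.2 ± 8.03 RPKM (SD, n = 3 each) and a log2 difference of -0.12 (SE 0.26, 95% interval -0.76 to 0.53). The highest values of Sult1e1 were in replicate 3 of each group, and without wild-type replicate 3 its difference turned to 0.14. Sult1c2 had 10, 18 and 10 reads in knock-out against 4, 8 and 8 in wild-type, below the mean of 1 RPKM needed for the test.

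Sult1d1, which acts on catecholamines in mice, had 1768, 0 and 1396 reads in knock-out against 0, 1702 and 1848 in wild-type. Sult1a1, the phenol sulfotransferase, had 665, 0 and 435 reads in knock-out against 180, 838 and 292 in wild-type. Where read, the groups overlapped for both. Sult2a2, Sult2a8 and Sult3a1 are named here after their values were seen. Sult2a8 had 222, 320 and 296 reads in knock-out against 309, 0 and 0 in wild-type. Sult2a2 had 0, 351 and 398 reads in knock-out, with every wild-type library at 0. Sult2a2 shares its locus with the pseudogene Zbed4-ps2, which had 519, 382 and 588 reads in knock-out against 17, 769 and 636 in wild-type, so the gene of these reads is uncertain. The locus of Sult2a2 as a whole had reads in all 6 libraries, from 17 in wild-type replicate 1 to 986 in knock-out replicate 3.

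Sult2a8, Sult2a2 and Ugt1a5 passed the limma test over all tested genes when 1 library was left out, and they carried the zeros described. Without wild-type replicate 1 the adjusted p was 0.00346 for Sult2a8 and 0.00905 for Ugt1a5, and without knock-out replicate 1 it was 0.00552 for Sult2a2. In the fit without wild-type replicate 1 these were 2 of 33 conjugating enzyme genes, beside 198 of all 10693 genes (1.85%), and without knock-out replicate 1 they were 1 of 34, beside 188 of 10871 (1.73%). Sult3a1, which like Sult2a1 and Sult2a2 is higher in female mouse liver, lies at a locus with 1 transcript. It had 18, 20 and 18 reads in knock-out against 0, 12 and 28 in wild-type.

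Of 36 further genes of the conjugation pathways, 35 were matched, 7 were at 0 in all libraries, 15 in some, and 13 were fully read. In the fit of all tested genes 1 of 27 passed, where 0.789% of all genes did, and it was lower in knock-out. This was Nnmt, which methylates nicotinamide, listed at 0 in knock-out with 764, 1548 and 1202 reads in wild-type (limma adjusted p = 0.0002), at a locus with 5 transcripts. The call of Nnmt was lost with voom (adjusted p = 0.0669), and no test of it was possible with zeros of such loci taken as missing. Of the 13 fully read genes limma called 0 at an adjusted p below 0.05, with 0 at an unadjusted p below 0.05. Their differences were positive for 12 and negative for 1, with a median of 0.24 on the log2 scale. Of the 5538 genes in that fit 50.2% were positive, with a median of 0.001. Signs under the scaling to hepatocyte markers are not given for these pathway genes.

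Among suppliers of the donor molecules, Papss2, which makes PAPS, measured 29.6, 30.4 and 27.6 RPKM in knock-out against 13.9, 27.4 and 28.2 in wild-type, with wild-type replicate 1 apart. Ugdh, which makes UDP-glucuronic acid, measured 183 ± 30.1 RPKM in knock-out against 195 ± 54.9 in wild-type (SD, n = 3 each) and was the 1 fully read gene with a negative difference (-0.06). Gclc, the catalytic subunit of the rate-limiting enzyme of glutathione synthesis, measured 65.9, 105.0 and 142.5 RPKM in knock-out against 87.1, 79.9 and 123.3 in wild-type. The groups of Gclc overlapped, with a log2 difference of 0.07 (SE 0.32). Gusb, which cleaves glucuronides, measured 118 ± 13.8 RPKM in knock-out against 118 ± 50.5 in wild-type (SD, n = 3 each).

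Of the regulators of these genes several were listed at 0 in some libraries and could not be compared. Nr1i3, the nuclear receptor CAR, measured 6.57, 7.11 and 6.66 RPKM in knock-out against 6.66, 5.49 and 7.30 in wild-type. Nr1i2, the nuclear receptor PXR, measured 2.83, 2.53 and 3.38 RPKM in knock-out against 1.12, 2.00 and 3.66 in wild-type. The wild-type values spanned those of knock-out for both. Arnt, the partner of the aryl hydrocarbon receptor, measured 120.6, 25.9 and 33.4 RPKM in knock-out against 18.4, 19.9 and 21.6 in wild-type, while its reads were 1898, 2188 and 1792 against 1644, 1858 and 1888. The RPKM groups of Arnt did not overlap, as for 5.94% of the 5538 genes, with knock-out replicate 1 far above the rest. Its read numbers overlapped before scaling to library size, and after it they did not, by a narrow margin. Ahr, Rxra, Nfe2l2, Keap1, Hnf4a and Ppara were at 0 in 1 or more libraries.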

How the data were processed

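Polyadenylated RNA of 6 hepatocyte samples was sequenced, and the authors deposited for each a list of 118,492 transcripts with estimated counts of reads and RPKM values. The submitters' processing notes name TopHat2 (version 2) as a tool and GRCm38 (mm10) as the build. Neither the program behind the estimates nor its use of strand is given in the sources used here. All 103 values above 0 of these genes at loci with 1 transcript were even within 0.001, so the estimated reads may overstate the number of independent reads.

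Samples took group and replicate number from their titles. Reads and RPKM were summed over the transcripts of a gene; symbols came from a table of Ensembl identifiers (47,993 of 48,353 matched), gene types from GENCODE M21, and 8 pseudogenes of the same name start were left out. Genes whose mean reached 1 RPKM were tested on log2(RPKM + 1) with limma 3.58.1 in R 4.3.3 (mean-variance trend, two-sided, no covariate, Benjamini-Hochberg adjustment over all genes tested, called below 0.05), then again over those above 0 in all 6 libraries. This scale understates changes of low genes. The fit was also run on simulated data with the same spread for every gene and no zeros. It recovered 100 of 100 genes changed by 1 log2 unit, with 9 false calls. Since the spread here differs between genes, this does not measure its power in these data. Shared windows of 50 bases were counted over GENCODE M21 transcripts. Python 3.11.15 and pandas 2.3.3 were used.

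The members, lists and tests were chosen with earlier results of these data known. By rule, values are given in full for the 10 most abundant fully read members of each class, members past the test and the member with the smallest p per class, as reads for members with zeros and at least 500 reads in a library, and for a fixed list of pathway genes. Alternatives were another pseudocount, filter, scaling, variance model, replicate block, read numbers, voom, zeros as missing and each library left out; loci with 1 transcript and scaling to hepatocyte markers were chosen after seeing the data.
One item of the pathway list is not reported here.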

Additional observations from a re-analysis of the deposited data

How the results depend on the processing

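The 0 calls among the 17 fully read conjugating enzyme genes held under every alternative run, and of the 300 recomputed differences of these genes 287 kept their sign. That count includes settings in which a sign could not change. Another filter, variance model or replicate block, zeros as missing, and loci with 1 transcript alone left the difference of a fully read gene as it was. The count is therefore no measure of how stable the signs are. Reversed signs came with scaling to hepatocyte markers for Gsta1 (-0.11), Gstp1 (-0.0170), Gstp2 (-0.0149), Gstz1 (-0.0285), Ugt2a3 (-0.20), Ugt2b38 (-0.0102) and Ugt2b5 (-0.0118). That scaling moved the median of all 5538 genes to -0.24 and called 2 of them. Under it 8 of the 17 were positive, beside 14.9% of the 5538 genes. Leaving out a library reversed 4 genes. Gsta3 turned to -0.16 without wild-type replicate 3, where its other values reached 0.64. Sult1e1 ranged from -0.30 to 0.14 (without wild-type replicate 3), and Ugt2a3 from -0.26 (without wild-type replicate 3; -0.17 without knock-out replicate 2) to 0.34. Ugt2b1 was at 0.16 without knock-out replicate 1 and 0.19 without wild-type replicate 1. Of these log2 differences none passed the test, and the cause of the reversals was not tested.

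Over all tested genes the 87 calls became 171 to 198 with a library left out, 0 when zeros of loci with several transcripts were treated as missing, and 0 at loci with 1 transcript, and the conjugating enzyme genes called ranged from 0 to 2. With the replicate block 0 genes were called (198 at an unadjusted p below 0.05; Nnmt had a limma adjusted p of 0.0505). Same-numbered samples did not deviate together (r of -0.16, -0.05 and -0.01), and 0 of the 6 samples correlated best with its own number, so the replicate numbers were not used as pairs. The log2 ratio of the class sums was 0.64 for UGT, and 0.18 over fully read genes; for SULT it was 0.60, and 0.23 from RPM and -0.14 over fully read genes. Depth limits what can be said of Sult1c2, at 4 to 18 reads.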
